A study of Zea mays with 14 samples.

Results

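Of 39305 maize gene IDs counted in 14 libraries, 144 took many reads in the aerial part of the seedling and few or none in root hair and root of the same inbred line. These members were chosen from the levels in B73 alone. A member had a mean of at least 100 CPM in aerial seedling, where CPM is a gene's count scaled to a library total of 1000000. That mean was also at least 64 times the mean in B73 root hair and the mean in B73 root, after 0.1 CPM was added to each. A further 3 IDs met these limits and were left out, as the rule lists them. Since these 3 groups chose the members, their levels are given as a description with no test, and tests were run only in the other 8 libraries.

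All samples came from maize seedlings aged 3 days and form 7 groups with 2 libraries each. A first set, of the inbred line B73 without a named allele or treatment, has aerial seedling, root hair, and root after the hairs were taken off. The other 4 groups form a zmlrl5 set: W22 wild type root hair and W22 zmlrl5 root hair, and B73 wild type root and B73 zmlrl5 root. The name zmlrl5 refers to a maize gene of the LRL group of bHLH transcription factors, and its ID is not given in the labels. In the labels, W22 zmlrl5 root hair is a knock down and B73 zmlrl5 root a knock out. W22 stands in the cultivar label of its 4 libraries, although their growth protocol mentions B73 alone. The sample titles say that hairs were removed for wild type root and do not say so for zmlrl5 root. How many mutant lines were used, and whether plants were pooled, is nowhere stated in the labels used here.

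A green shoot makes the proteins of the chloroplast that catch light, pass electrons and fix carbon dioxide, and it covers its surface with lipids and waxes. Roots grow in the dark with plastids that are not green, so the nuclear genes of photosynthesis are usually kept low there. Genes of seed oil use and of defence against wounding and fungi are also active in young maize seedlings.

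Library totals ran from 12336633 to 27788359 counts, so that 3 counts correspond to 0.108 to 0.243 CPM. The Pearson correlation between the 2 libraries of a group, across genes that are not independent replicates, was 0.989 to 0.997. The root hair marker Cel4 stood at 3314, 2411 and 1974 CPM in the 3 root hair groups, and at 40.5, 46.8 and 0.588 CPM in B73 root, B73 wild type root and B73 zmlrl5 root. The root markers RCP1 and grp3 were at 115 and 380.0 CPM in B73 root, and RCP1 was at 16.4, 77.8 and 59.3 CPM in the 3 root hair groups, but they were at 0.581 and 0.256 CPM in B73 wild type root and 0.0744 and 0.301 CPM in B73 zmlrl5 root. The root marker por2 was present in all 3 root groups, at 218, 400.0 and 360.1 CPM. It was also at 108, 360.1 and 678 CPM in B73, W22 wild type and W22 zmlrl5 root hair, so it was not particular to root here. The 2 sets of B73 root thus differ in markers of root, and their values are set side by side below without a test.

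The 5 members just inside the ratio had a smaller ratio of 71.1 to 78.4, with the homeobox gene gt1 (GRMZM2G005624) at 77.2. The 5 genes just outside it had 57.5 to 62.3. By seedling level, the 5 members just inside had 101.5 to 106.2 CPM, and the 5 genes just outside, which met the ratio, had 97.2 to 99.6 CPM.

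In aerial seedling the 144 members together took 6.82% and 6.64% of all counts of the 2 libraries. Their median of group means was 242 CPM, and 139 of them reached 100 CPM in both libraries. The member with the most reads was plt1 (GRMZM2G101958), a phospholipid transfer protein gene, at 6416 and 6265 CPM. It was followed by pcr1 (GRMZM2G084958), which encodes protochlorophyllide reductase of chlorophyll synthesis, at 3884 and 3449.6 CPM. Next came kin1 (GRMZM2G158394) at 2311 and 2957 CPM and plt2 (GRMZM2G010868), also a phospholipid transfer protein gene, at 2108 and 2680.0 CPM. Both libraries were close for each of them.

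In the 12 hair and root libraries the members summed to 55.7 CPM at the lowest and 635 CPM at the highest. As a share of the seedling sum, the group means were 0.0950% in B73 root hair, 0.263% in B73 root, 0.378% in W22 wild type root hair, 0.528% in W22 zmlrl5 root hair, 0.613% in B73 wild type root and 0.932% in B73 zmlrl5 root. No member was without counts in all 12 of these libraries. In a bulk sample, fewer cells that hold a transcript cannot be told apart from less of it in each cell.

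**Figure D1:**
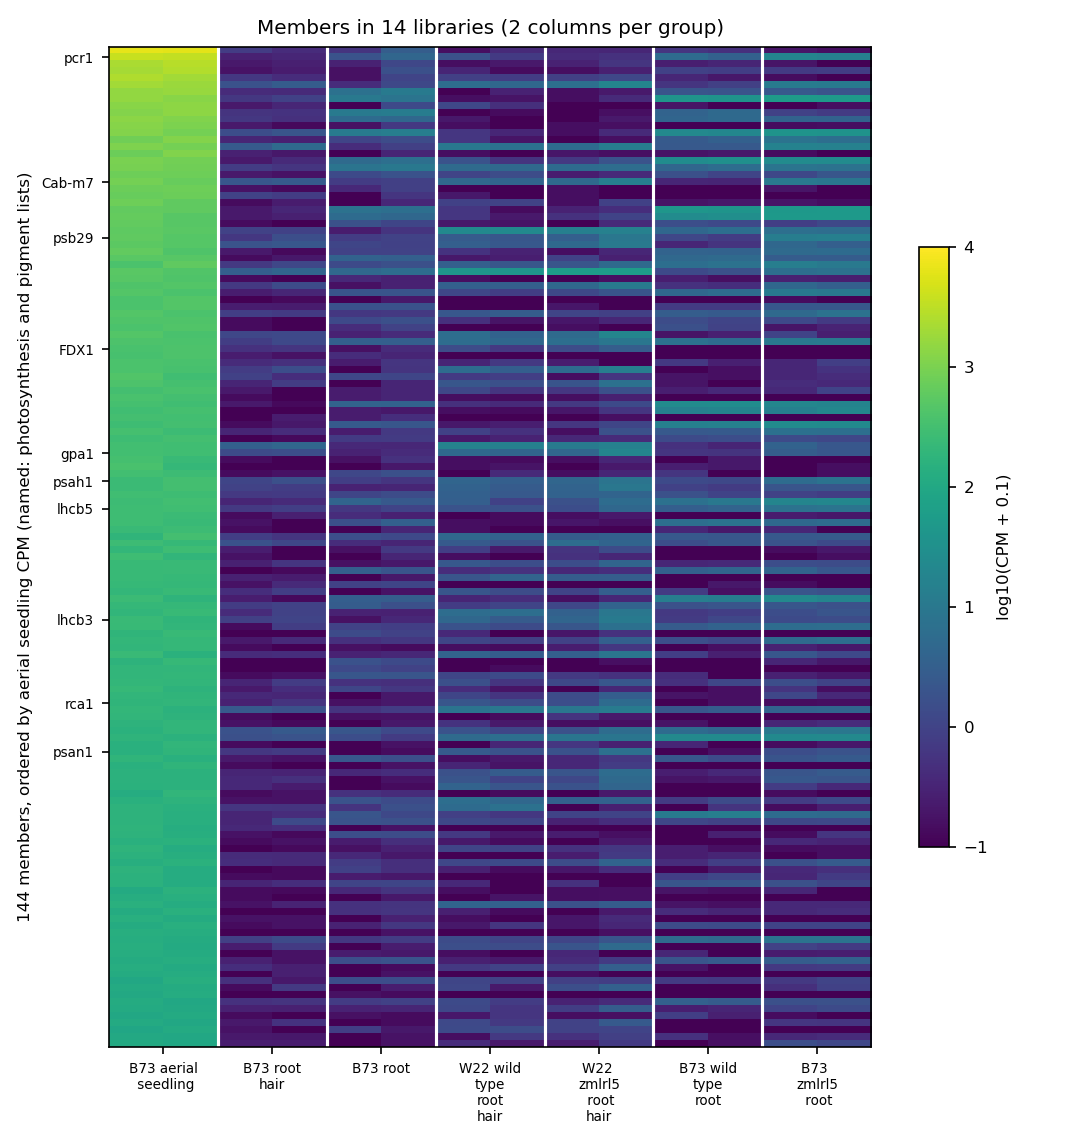
Level of each of the 144 members (rows, ordered by mean aerial seedling CPM) in each of the 14 libraries (columns, 2 per group), coloured by log10(CPM + 0.1). The 2 aerial seedling columns stand at 92.0 CPM or more for every member, and different members are brighter in the root hair columns than in the root columns of the zmlrl5 set.

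Of 12 gene lists defined by gene names, 7 held members. The 3 IDs left out by the rule were kept out of the lists too, so no count of a list covers them. The light harvesting list of 7 genes held 3 members, lhcb5, lhcb3 and Cab-m7. The photosystem list of 16 held 4, psb29, psan1, FDX1 and psah1. The Calvin cycle list of 5 held 2, rca1 and gpa1, and the pigment synthesis list of 10 held 1, pcr1. The 4 lists together thus gave 10 members, called photosynthesis members below. The wax and epidermis list of 14 held plt1, plt2 and LTP3, the defence protein list of 59 held geb1, prp2 and wip1, and the transport and water list of 70 held the aquaporin gene NIP1-1. The lists of C4 cycle (19 genes, of which 8 reached 100 CPM in aerial seedling), benzoxazinoid (12, of which 10 did) and cell wall genes (47, of which 17 did) held 0 members. The lists of leaf and shoot development (65) and light and clock genes (24) held 0 members as well, and 1 gene of each reached 100 CPM. Only 29 members had a gene name, and the lists do not hold every named gene of a family. The named members glossy2, gt1 and por (GRMZM2G073351), for example, are in none of them.

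Between B73 root hair and B73 root the members went both ways, about as all genes did. Both root hair libraries lay below both root libraries for 76 members (52.8%), where 57.5% of all IDs with a read did so, and above them for 38 members (26.4%), where 19% of all IDs did. Among the 10 photosynthesis members, both root hair libraries lay above both root libraries for 7. These 4 libraries took part in the choice, so the counts are a description. Cab-m7 (GRMZM2G402936), a gene of the main light harvesting antenna, had 2.13 and 2.59 CPM in B73 root hair and 0.677 and 0.803 CPM in B73 root, against 885 and 690.1 CPM in aerial seedling. gpa1 (GRMZM2G337113), the chloroplast glyceraldehyde-3-phosphate dehydrogenase subunit A of the Calvin cycle, had 1.28 and 1.44 CPM in B73 root hair and 0.203 and 0.306 CPM in B73 root. Both genes were higher in the hair libraries, without overlap. psb29 and lhcb5 overlapped between root hair and root. Only pcr1 was lower in root hair without overlap, with 0.193 and 0.252 CPM in root hair and 1.83 and 4.36 CPM in root.

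The 2 B73 root libraries differed in how many members they detected. B73 root replicate 1 had 30 members without a count and replicate 2 had 0. Replicate 1 was also the shallower library, with 14775951 counts against 26147759 in replicate 2. plt1 had 0.474 and 2.83 CPM there, plt2 0.0677 and 1.57 CPM, kin1 0.203 and 1.07 CPM and GRMZM2G122276 0 and 1.19 CPM, in the order of the replicates. Replicate 2 was the higher of the pair in these 4 genes, which were picked for it, and in 21 of the 25 members with the most seedling reads. It was the lower in the other 4 of the 25, among them GRMZM2G099454 at 10.3 and 8.34 CPM, and over all 144 members it was the higher in 94. Why the replicates differed was not tested. Choosing the members without replicate 1 or without replicate 2 gave 147 genes each time.

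Libraries that the choice did not use also held few reads of most members. At the same 64-fold distance from B73 aerial seedling stood 130 of 144 members in W22 wild type root hair, where 18.3% of the other genes at 100 CPM or more in seedling did so. The count was 113 in W22 zmlrl5 root hair, against 19.1% of the other genes. It was 125 in B73 wild type root and 117 in B73 zmlrl5 root, against 2.11% and 2.17% of the other genes. The same seedling libraries enter every such ratio. The other genes are those that missed the ratio in B73 root hair or B73 root, so the gap follows in part from the choice. Over all 1806 genes at 100 CPM or more in seedling, members included, the shares were 24%, 23.9%, 8.86% and 8.47%, in the same order of groups. 88 members kept the distance in all 4 groups, 29 lost it in a root group, 33 in a root hair group and 6 in both tissues.

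Single members show how the distance was lost in 1 tissue of the zmlrl5 set. In B73 wild type root, GRMZM2G150893 stood at 42.7 and 38.9 CPM and GRMZM2G099454 at 39.6 and 37.2 CPM, and in W22 wild type root hair they stood at 0.508 and 0.0414 CPM and 0.0564 and 0.0827 CPM. GRMZM2G179703 was the reverse, with 39.8 and 38.5 CPM in W22 wild type root hair and 1.22 and 1.65 CPM in B73 wild type root. Its level in aerial seedling was 518 and 437 CPM, and in B73 root hair 3.21 and 4.14 CPM. In B73 root, GRMZM2G150893 had 7.58 and 6.58 CPM and GRMZM2G099454 had 10.3 and 8.34 CPM, below their levels in B73 wild type root. GRMZM2G374302 had 0.135 and 0.115 CPM in B73 root but 15.6 and 17.7 CPM in B73 wild type root. The 2 sets of root libraries therefore disagree for GRMZM2G150893, GRMZM2G099454 and GRMZM2G374302 by far more than their replicates do. The comparison was not tested. The members were chosen for low levels in B73 root, which favours a higher value in the other set.

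The difference between W22 root hair and B73 root was wide and went both ways. Of the 144 members, 101 passed the filter on low counts in the zmlrl5 set. In W22 wild type root hair against B73 wild type root, 53 of them were higher, where 36.5% of all 25303 genes tested were, and 37 were lower, where 44% were. Without the filter on low counts, 141 members could be tested, and 53 were higher and 36 lower, against 26.6% and 31.7% of all genes. With the filter, the median log2 fold change was 1.37 over the members tested and -0.23 over all genes. Members pass this filter only with enough reads in some group, so these figures describe the members that could be tested and not the whole 144. The inbred line and the tissue change together here and cannot be told apart. The root marker RCP1 stood at 77.8 CPM in W22 wild type root hair and 0.581 CPM in B73 wild type root, por2 at 360.1 and 400.0 CPM, grp3 at 1.09 and 0.256 CPM and the hair marker Cel4 at 2411 and 46.8 CPM. Their part in the members' differences was not tested.

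8 of the 10 photosynthesis members were higher in W22 root hair, pcr1 was lower and lhcb5 did not pass the test. Cab-m7 had 4.85 and 3.97 CPM in W22 wild type root hair and 0.243 and 0.228 CPM in B73 wild type root. The 2 groups did not overlap, and the log2 fold change was 4.92 ± 0.52 (SE, n = 2 and 2, adjusted p = 6.83e-10). FDX1 (GRMZM2G122337), a ferredoxin that takes electrons from photosystem I, had 1.35 and 0.579 CPM in root hair and 0 counts in root, which put root hair at least 9.03-fold higher against a floor of 3 counts over the group. rca1 (GRMZM2G162200), the activase of Rubisco, had 2.09 and 1.32 CPM and 0 and 0.0570 CPM. Its 69 counts against 1 count gave a ratio of 49.2 with an exact 95% interval of 8.54 to 1971, which covers counting error only. Set beside B73 root hair, both W22 wild type libraries lay above both B73 libraries for 10 of 10 photosynthesis members and 75 of the 134 others, where 42.3% of all IDs with a read did. The members were chosen for low levels in those B73 libraries, which favours this direction, so nothing is read from it.

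Of the wax and defence lists, the members plt2 and wip1 were higher in B73 wild type root, prp2 was higher in W22 root hair, and plt1, LTP3 and geb1 did not pass the filter. The call of plt2 was lost without W22 wild type root hair replicate 2, without B73 wild type root replicate 1 or 2, and with DESeq2. glossy2 (GRMZM2G098239), needed for the wax of juvenile maize leaves and in none of the lists, had 22.5 and 20.3 CPM in B73 wild type root and 0.508 and 0.248 CPM in W22 wild type root hair. The log2 fold change was -5.13 ± 0.28 (SE, n = 2 and 2, adjusted p = 1.18e-16). wip1 (GRMZM2G156632), a wound-induced proteinase inhibitor, had 3.73 and 5.07 CPM in root and 0 and 0.0414 CPM in root hair. With 135 counts against 1 count the ratio was 189 (exact 95% interval 33.4 to 7532). For GRMZM2G099454, whose levels are given above, 1141 counts in root against 3 counts in root hair gave a ratio of 533 (exact 95% interval 182 to 2590).

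**Figure D2:**
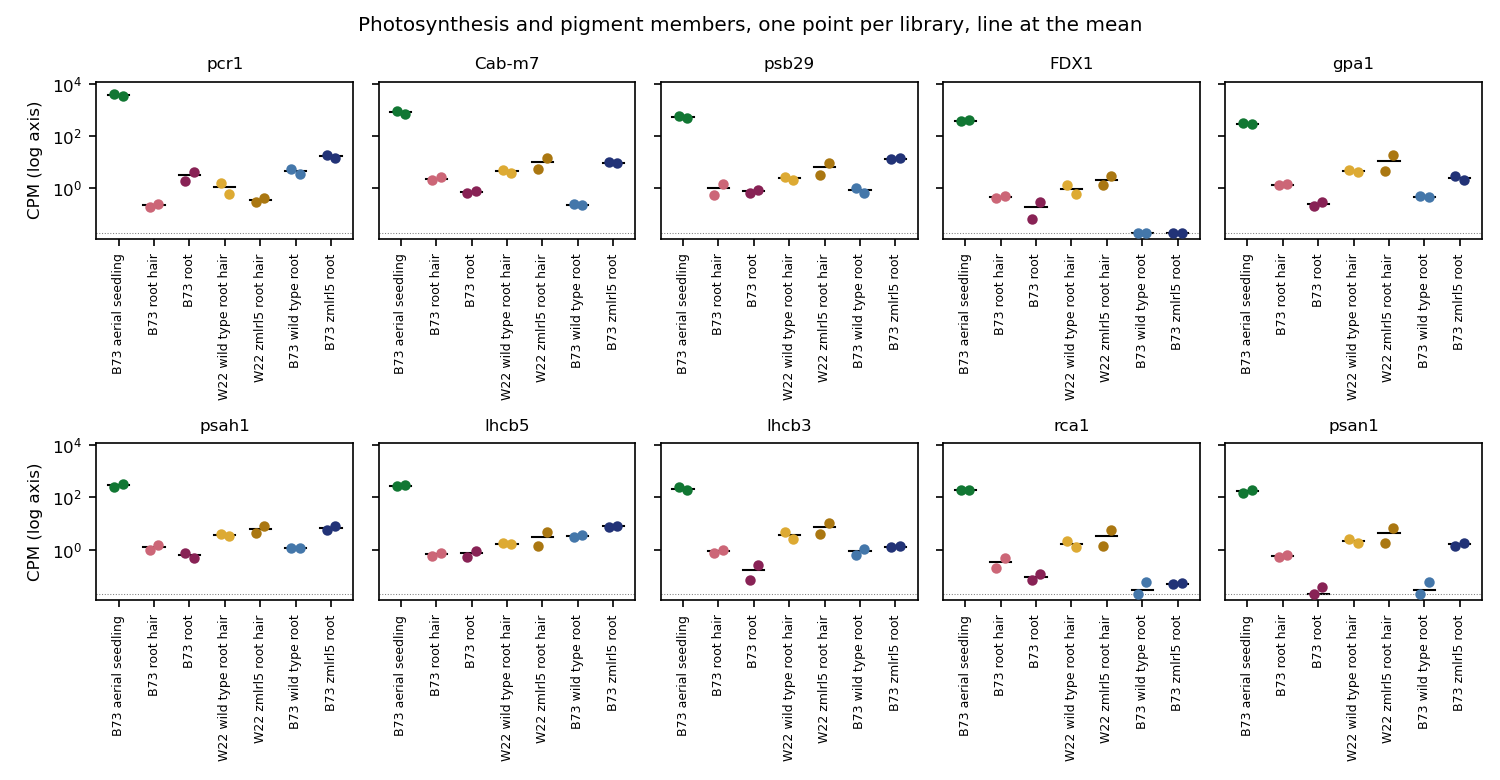
CPM of the 10 photosynthesis members (log axis; 1 point per library, a line at the mean of 2, 0 drawn at 0.02 CPM on the dotted line) in the 7 groups. Each gene stands at 152 CPM or more in both aerial seedling libraries; Cab-m7 and psb29 are higher in B73 zmlrl5 root than in B73 wild type root, and W22 zmlrl5 root hair replicate 2 lies above replicate 1 in all 10.

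In B73 root, the zmlrl5 mutant had more reads of many members, among them genes of light harvesting and of both photosystems. 42 of the 101 members tested were higher in zmlrl5 root than in wild type root, where 4.27% of all genes tested were higher. 3 were lower, where 4.09% of all genes were. The median log2 fold change was 0.73 over the members tested and 0.02 over all genes. In the 42 and in the 3, the libraries of the 2 groups did not overlap. Over all 144 members, both zmlrl5 libraries lay above both wild type libraries for 66, where 21.6% of IDs with a read did, and below them for 23, where 24.4% did. Without the filter, 45 members were higher and 2 lower, against 2.62% and 2.8% of all genes. Without wild type replicate 1, and also without wild type replicate 2, the count of higher members was 19. Without zmlrl5 replicate 1 it was 25.

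7 of the 10 photosynthesis members rose in zmlrl5 root. Cab-m7 had 0.243 and 0.228 CPM in wild type root and 10.3 and 8.96 CPM in zmlrl5 root, and the log2 fold change was 5.35 ± 0.49 (SE, n = 2 and 2, adjusted p = 1.33e-09). psb29 (GRMZM2G033885), by its name a gene of photosystem II, had 1.05 and 0.684 CPM in wild type and 13.0 and 14.4 CPM in zmlrl5 root, a log2 fold change of 4.04 ± 0.38 (SE, n = 2 and 2, adjusted p = 2.21e-09). Both were far above the wild type range in each mutant library, while their seedling levels of 885 and 690.1 CPM and 598 and 477 CPM were higher still. psan1 (GRMZM2G080107), subunit N of photosystem I, rose from 0 and 0.0570 CPM to 1.42 and 1.84 CPM. Its 64 counts against 1 count gave a ratio of 48.3 (exact 95% interval 8.36 to 1936).

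The other members of the photosynthesis lists changed less or could not be called. psah1 (GRMZM2G451224), subunit H of photosystem I, went from 1.22 and 1.14 CPM to 5.78 and 7.94 CPM, with a log2 fold change of 2.57 ± 0.34 (SE, n = 2 and 2, adjusted p = 1.4e-06). gpa1 went from 0.486 and 0.456 CPM to 2.94 and 2.16 CPM, and lhcb5 (GRMZM2G149428), a minor antenna protein of photosystem II, from 3.08 and 3.76 CPM to 7.53 and 8.26 CPM. pcr1 rose from 5.59 and 3.53 CPM to 18.3 and 14.6 CPM, with a log2 fold change of 1.92 ± 0.26 (SE, n = 2 and 2, adjusted p = 2.79e-06). In these 4 genes each mutant library was above each wild type library. The calls of gpa1 and lhcb5 were lost when wild type replicate 1 or wild type replicate 2 was left out. lhcb3 (GRMZM2G155216), of the main antenna, was at 0.648 and 1.08 CPM and 1.23 and 1.35 CPM, and its adjusted p was 0.679. rca1 held 0.0474 and 0.0540 CPM in zmlrl5 root, and FDX1 had 0 counts in all 4 root libraries of the zmlrl5 set, which allows up to 0.142 to 0.243 CPM per library.

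The lipid transfer genes, with many reads in seedling, were low in both root genotypes. plt1, which did not pass the filter and was not tested, had 0.486 and 0.399 CPM in wild type root and 0.0947 and 0.0540 CPM in zmlrl5 root, and plt1, plt2 and LTP3 together had 1.30 and 1.14 CPM in wild type and 0.711 and 0.756 CPM in zmlrl5 root. In aerial seedling the same 3 genes summed to 9203 and 9706 CPM, and the 10 photosynthesis members to 7154 and 6487 CPM. The photosynthesis members summed to 12.3 and 11.0 CPM in wild type root and to 60.5 and 59.6 CPM in zmlrl5 root. The 28 other genes of the 4 photosynthesis lists, which are no members, summed to 817 and 818 CPM in wild type root and 770 and 761 CPM in zmlrl5 root. The root hair markers Cel4 and GRMZM2G436299 moved with the genotype as well, from 46.8 to 0.588 CPM and from 3.12 to 0 CPM. The hair markers rth3 and GRMZM2G426953 were at 30.9 and 29.7 CPM and at 38.1 and 45.3 CPM. How far a different content of hairs in the zmlrl5 root libraries takes part in these differences was not tested.

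**Figure D3:**
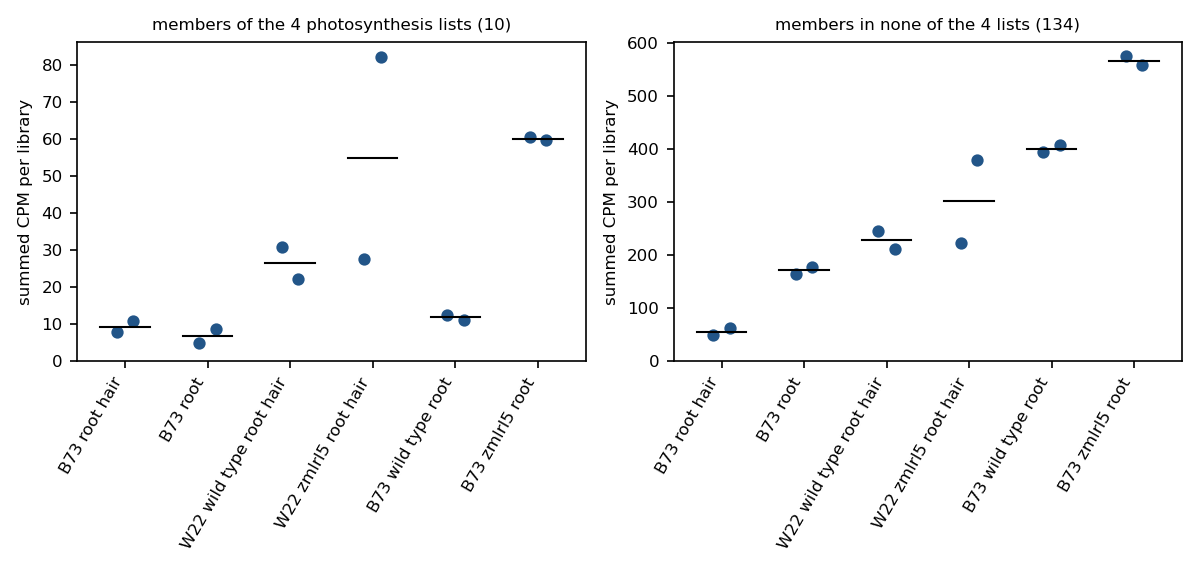
Summed CPM of the 10 photosynthesis members (left) and of the 134 other members (right) in the 12 hair and root libraries, with 1 point per library and a line at the mean of 2; both axes start at 0. The photosynthesis sum is 60.5 and 59.6 CPM in B73 zmlrl5 root against 12.3 and 11.0 CPM in B73 wild type root, and W22 zmlrl5 root hair replicate 2 (82.2 CPM) stands apart from replicate 1 (27.5 CPM).

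Outside the photosynthesis lists, the members that rose in zmlrl5 root were mostly genes without a name. GRMZM2G175562 went from 2.35 and 2.39 CPM to 16.5 and 15.9 CPM, with a log2 fold change of 2.81 ± 0.28 (SE, n = 2 and 2, adjusted p = 9.72e-09). AC207722.2_FG009 went from 0.486 and 0.798 CPM to 12.2 and 10.9 CPM and GRMZM2G179703 from 1.22 and 1.65 CPM to 6.30 and 7.40 CPM. In all 3 genes the 2 mutant libraries were close to each other and well above wild type. glossy2 went from 22.5 and 20.3 CPM to 37.8 and 37.7 CPM, with a log2 fold change of 0.86 ± 0.16 (SE, n = 2 and 2, adjusted p = 0.000194). GRMZM2G160268, GRMZM2G377855, GRMZM2G134130 and GRMZM2G017290 had 0 counts in wild type root and 29, 23, 20 and 19 counts in zmlrl5 root, at least 7.29-fold, 5.78-fold, 5.03-fold and 4.78-fold higher. The calls of these 4 genes were lost without wild type replicate 2.

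The 3 members that fell in zmlrl5 root were wip1, GRMZM2G380432 and GRMZM2G174562. wip1 had 3.73 and 5.07 CPM in wild type root and 0.853 and 0.648 CPM in zmlrl5 root, and its log2 fold change was -2.50 ± 0.46 (SE, n = 2 and 2, adjusted p = 0.000298). GRMZM2G380432 had 10.9 and 13.8 CPM and 5.54 and 4.91 CPM, with a log2 fold change of -1.20 ± 0.24 (SE, n = 2 and 2, adjusted p = 0.000675). GRMZM2G174562 had 1.54 and 0.855 CPM and 0.0947 and 0.216 CPM. It passed the filter on low counts only through wild type root, the group where it was high. Without the filter, 2 members were lower. The mutant libraries lay below wild type in all 3, and without wild type replicate 2 none of the 3 was called in the same test.

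In W22 root hair, members went both ways in the zmlrl5 group, and 1 of its 2 libraries carried much of the rise. 23 of the 101 members tested were higher in zmlrl5 than in wild type root hair, where 10.1% of all genes tested were, and 7 were lower, where 12.4% were. The median log2 fold change was 0.57 over the members tested and -0.01 over all genes. All members together summed to 276 and 232 CPM in wild type root hair and to 250.1 and 461 CPM in zmlrl5 root hair. Over the 144 members, both zmlrl5 libraries lay above both wild type libraries for 39, where 22.9% of IDs with a read did, and below for 21, where 22.6% did. Replicate 2 of zmlrl5 stood above the other 3 libraries, and replicate 1 lay within the wild type range. Without zmlrl5 replicate 2, 5 members were higher and 11 lower, and without zmlrl5 replicate 1, 37 were higher and 4 lower. Without wild type replicate 2, 11 were higher. Without the filter, 28 were higher and 9 lower, against 5.94% and 9.27% of all genes.

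Among the 10 photosynthesis members, 5 were called higher, pcr1 was called lower and 4 did not pass. Both zmlrl5 libraries lay above both wild type libraries in 3 of the 10. Cab-m7 had 4.85 and 3.97 CPM in wild type and 5.28 and 14.6 CPM in zmlrl5 root hair, with a log2 fold change of 1.14 ± 0.29 (SE, n = 2 and 2, adjusted p = 0.0032). psb29 had 2.65 and 2.11 CPM and 3.16 and 9.44 CPM, and gpa1 had 5.02 and 4.14 CPM and 4.40 and 18.3 CPM. For each of the 3 genes, replicate 1 was near wild type and replicate 2 was the high library. Without replicate 2 the log2 fold change was 0.25 for Cab-m7, 0.40 for psb29 and -0.07 for gpa1, and none was called. The calls of psah1 and lhcb3 were lost in the same way. The 28 genes of the 4 lists that are no members summed to 528 and 505 CPM in wild type and 504 and 496 CPM in zmlrl5 root hair.

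Members called lower in zmlrl5 root hair were lower in both libraries. pcr1 had 1.64 and 0.620 CPM in wild type and 0.311 and 0.421 CPM in zmlrl5 root hair, with a log2 fold change of -1.56 ± 0.53 (SE, n = 2 and 2, adjusted p = 0.0317), and the call was lost without wild type replicate 1. icl1 (GRMZM2G056369), the isocitrate lyase of the glyoxylate cycle that turns stored oil into sugar, had 23.9 and 23.0 CPM and 14.4 and 15.4 CPM, a log2 fold change of -0.67 ± 0.15 (SE, n = 2 and 2, adjusted p = 0.00118). GRMZM2G024996 had 5.41 and 7.11 CPM and 0 and 0.180 CPM. It passed the filter on low counts only through wild type root hair, the group where it was high. With 268 counts against 3 counts, wild type was 76.6 times the mutant (exact 95% interval 25.9 to 374). These 3 genes did not overlap between the groups.

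2 members without a name that rose kept both zmlrl5 libraries close. GRMZM2G179703 had 39.8 and 38.5 CPM in wild type and 56.9 and 58.9 CPM in zmlrl5 root hair, with a log2 fold change of 0.55 ± 0.11 (SE, n = 2 and 2, adjusted p = 0.000242). GRMZM2G004795 had 5.30 and 6.20 CPM and 8.75 and 8.60 CPM, with a log2 fold change of 0.57 ± 0.17 (SE, n = 2 and 2, adjusted p = 0.0162). For both genes the zmlrl5 libraries lay above the wild type libraries. In wild type and zmlrl5 root hair, the root hair marker GRMZM2G436299 was at 212 and 132 CPM and Cel4 at 2411 and 1974 CPM. The hair markers rth3 and GRMZM2G426953 were at 104 and 103 CPM and at 301 and 305 CPM. The root marker por2 was at 360.1 and 678 CPM, RCP1 at 77.8 and 59.3 CPM and grp3 at 1.09 and 1.04 CPM. Whether what these markers reflect takes part in the members' differences was not tested.

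**Figure D4:**
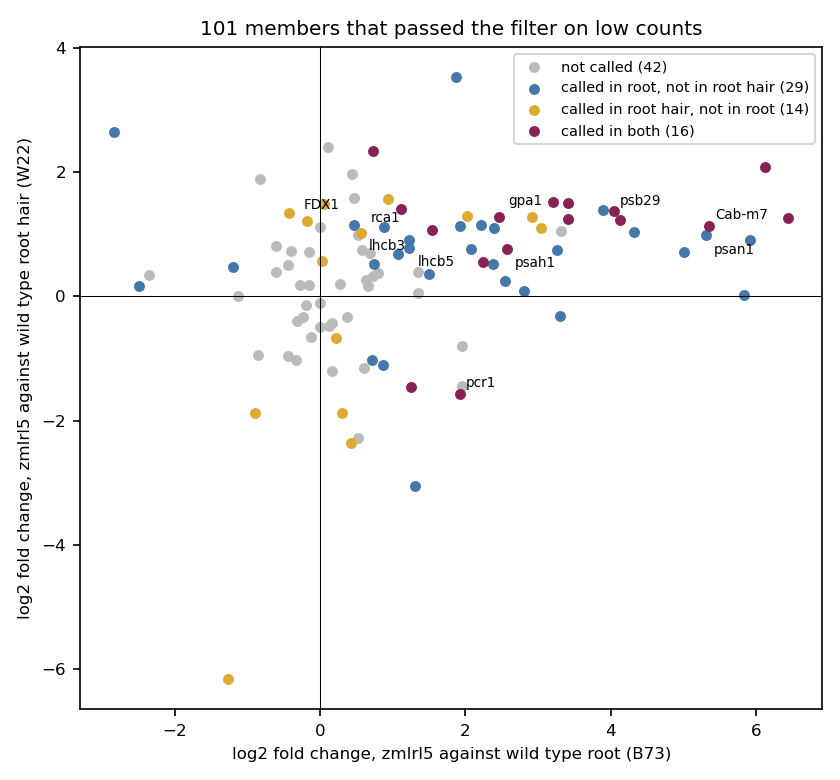
Log2 fold change of zmlrl5 against wild type in B73 root (horizontal) and in W22 root hair (vertical) for the 101 members that passed the filter, coloured by whether edgeR called them; the 10 photosynthesis members are named. 29 members were called in root and not in root hair, 14 in root hair and not in root and 16 in both, and pcr1 was higher in root and lower in root hair.

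The 2 mutants shared 14 higher members, which are 33.3% of the 42 higher in root and 60.9% of the 23 higher in root hair. Over all genes, 276 were higher in both, 25.5% and 10.8% of the respective calls. The 14 rest on single libraries, by a check added after the data were seen. They became 2 without W22 zmlrl5 root hair replicate 2 and 26 without its replicate 1, 8 without W22 wild type root hair replicate 2, and 8 and 7 without B73 wild type root replicate 1 and 2. pcr1 and GRMZM2G177812 were higher in zmlrl5 root and lower in zmlrl5 root hair. The difference between the mutant effects, root hair minus root, was tested as an interaction. 21 members had a lower effect in root hair, where 8.11% of all genes did, and 3 had a higher one, where 6.52% did. Without the filter the counts were 23 and 5, against 5.66% and 4.08% of all genes. The median difference was -0.61 over the members tested and -0.04 over all genes. The lower ones included 5 photosynthesis members, and the difference was -4.21 ± 0.63 (SE, adjusted p = 1.03e-05) for Cab-m7 and -3.49 ± 0.58 (SE, adjusted p = 4.96e-05) for pcr1. When wild type root replicate 1 or wild type root replicate 2 was left out, the 21 became 12, and without W22 zmlrl5 root hair replicate 2 they became 35. Without W22 wild type root hair replicate 2, and without B73 wild type root replicate 2, the 3 became 1. The line, the tissue and the kind of mutant differ between the 2 effects and cannot be told apart.

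Among the lipid transfer genes, low levels held in all root and hair groups. plt1 was at 0.658 and 0.324 CPM in B73 root hair, 0.0564 and 0.290 CPM in W22 wild type root hair and 0.259 and 0.241 CPM in W22 zmlrl5 root hair. LTP3 (GRMZM2G126397), a lipid transfer protein gene with 678 and 762 CPM in aerial seedling, had 0.851 and 0.684 CPM in B73 root hair and 0 counts in all 4 root libraries of the zmlrl5 set. plt2 had 0.811 and 0.741 CPM in B73 wild type root and 0.616 and 0.702 CPM in B73 zmlrl5 root, with an adjusted p of 0.948. plt2 lies next to the member GRMZM2G107839 in the gene table. That neighbour had 2.51 and 3.36 CPM in wild type root and 7.91 and 6.42 CPM in zmlrl5 root, with a log2 fold change of 1.31 ± 0.34 (SE, n = 2 and 2, adjusted p = 0.00979). GRMZM2G109959 and GRMZM2G122276 were the other pair of neighbours, among 118 members that matched 1 entry of the table.

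Of the defence genes, geb1 (GRMZM2G065585), a glucan-cutting enzyme, had 186 and 238 CPM in aerial seedling and 1.29 and 0.880 CPM in B73 root. It had 0 counts in both B73 root hair libraries and in all 4 root libraries of the zmlrl5 set. prp2 (GRMZM2G102356) had 1.97 and 3.85 CPM in W22 wild type root hair and 2.69 and 2.89 CPM in W22 zmlrl5 root hair, and 0 counts in the 4 root libraries of the zmlrl5 set. Against 3 counts over the group, its W22 wild type root hair level was at least 30.4-fold higher than B73 wild type root. KWL1 (GRMZM2G073114), a kiwellin, a protein that in maize binds an effector of the smut fungus, stood at 385 and 362 CPM in aerial seedling and was below 1 CPM in each hair and root library.

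icl1 differed widely between the 2 library sets, in root hair, where the line differs as well, and in root of B73. It had 571 and 531 CPM in aerial seedling, 0.851 and 0.828 CPM in B73 root hair and 23.9 and 23.0 CPM in W22 wild type root hair. In root it had 0.135 and 0.459 CPM in B73 root and 4.54 and 6.38 CPM in B73 wild type root of the zmlrl5 set. Both differences exceed the spread of the replicates by far, and since the sets were not tested against each other they stay a description. The members were chosen for low levels in B73 root hair and B73 root, which favours higher values in the zmlrl5 set. The aquaporin gene NIP1-1 (GRMZM2G041980) had 220.3 and 169 CPM in aerial seedling and at most 1.02 CPM in any hair or root library.

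**Figure D5:**
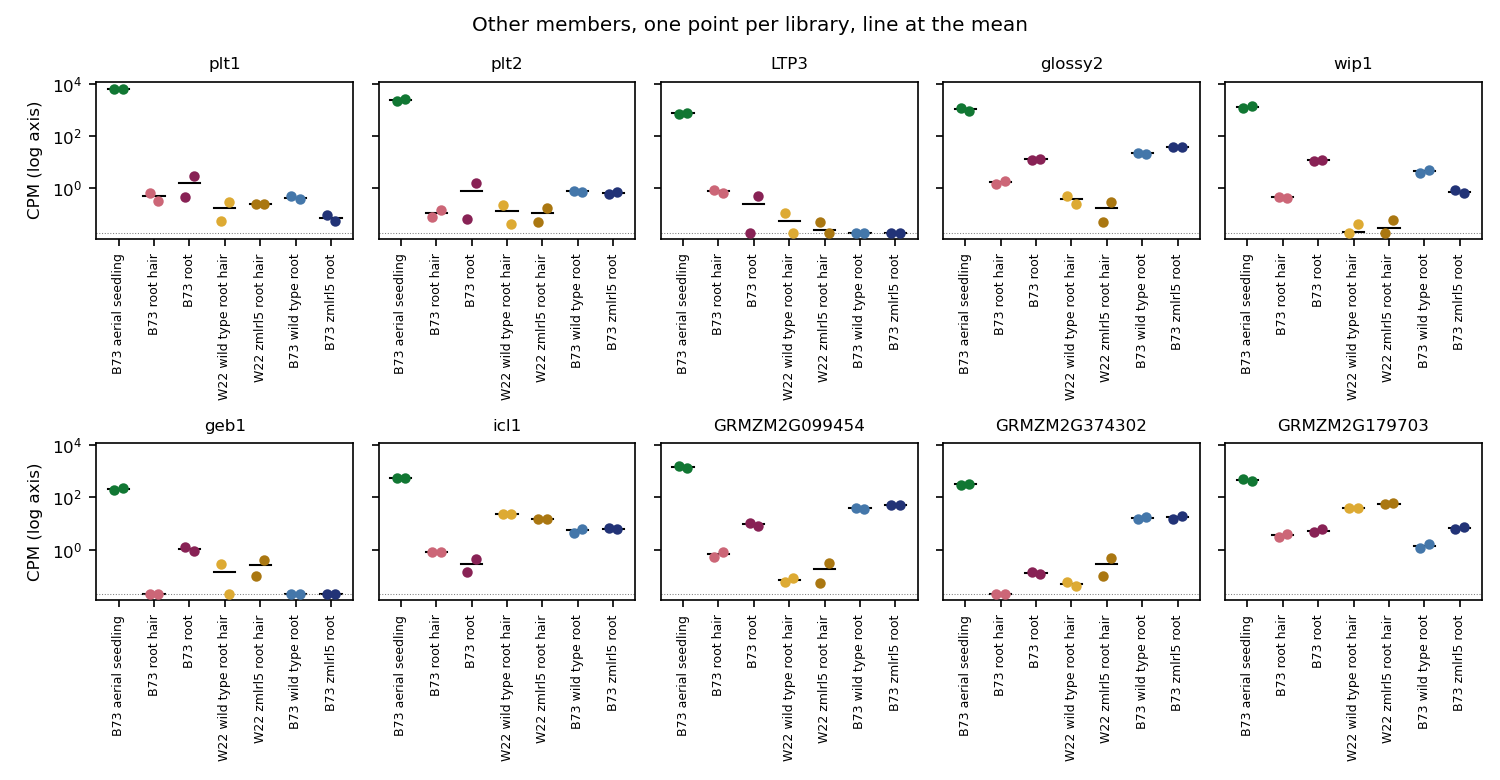
CPM of 10 further members (log axis; 1 point per library, a line at the mean of 2, 0 drawn at 0.02 CPM on the dotted line) in the 7 groups. plt1 stays below 3 CPM in all hair and root libraries, glossy2 and GRMZM2G099454 are higher in root than in root hair, and icl1 and GRMZM2G179703 are highest among hair and root groups in W22 root hair.

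The other genes of the lists, which are no members, are given by their counts. In zmlrl5 root, 1 of 3 tested light harvesting genes that are no members was higher, 1 of 1 Calvin cycle genes was higher, 1 of 6 photosystem genes was lower and 0 of 9 pigment genes passed. Of 17 C4 cycle genes 2 were higher and 2 lower. The wax and epidermis list had 2 higher of 7, the benzoxazinoid list 7 higher and 1 lower of 12, and the cell wall list 12 higher and 2 lower of 38. The defence list had 2 higher and 12 lower of 48, the leaf and shoot development list 5 higher and 1 lower of 42, the light and clock list 0 of 17, and the transport and water list 2 higher and 4 lower of 60. gpb1 (GRMZM5G845611), the Calvin cycle partner subunit of gpa1, was at 1.09 CPM in wild type and 2.90 CPM in zmlrl5 root, with a log2 fold change of 1.39 ± 0.34 (SE, n = 2 and 2, adjusted p = 0.00572). Its level in B73 root hair was 7.03 CPM, in B73 root 0.26 CPM and in aerial seedling 321 CPM, and it missed the ratio in root hair.

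In zmlrl5 root hair, 1 of 3 light harvesting genes that are no members was higher, 0 of 1 Calvin cycle genes passed, 2 of 6 photosystem genes were higher and 2 lower, and 1 of 9 pigment genes was higher and 1 lower. Of 17 C4 cycle genes 3 were higher and 9 lower. The wax and epidermis list had 2 higher of 7, the benzoxazinoid list 2 higher and 4 lower of 12, and the cell wall list 9 higher and 6 lower of 38. The defence list had 9 higher and 10 lower of 48, the leaf and shoot development list 9 higher and 2 lower of 42, the light and clock list 2 higher and 3 lower of 17, and the transport and water list 17 higher and 9 lower of 60. The light harvesting gene cab-m1 (GRMZM2G351977) was at 4.75 CPM in wild type and 10.4 CPM in zmlrl5 root hair, with a log2 fold change of 1.12 ± 0.34 (SE, n = 2 and 2, adjusted p = 0.0151).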

How the data were processed

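Messenger RNA of 14 maize libraries was sequenced, after extraction with TRIzol per the labels' protocols (a Qiagen kit in the series' design text), from a NEBNext kit on a HiSeq2500. The authors deposited raw counts of reads per gene ID. TopHat2, HTSeq and DESeq are named in the submitters' processing notes without versions, and neither the genome build nor the strand setting is stated in the sources. Counts of overlapping or antisense genes, and of close copies, can therefore hold reads of each other. HTSeq's summary entries in the 6 libraries of the B73 tissue set, with 3.58% to 6.71% of reads outside genes and 1.91% to 2.58% ambiguous, stayed out of the totals.

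Levels are CPM over the library total. In the 8 libraries of the zmlrl5 set, counts were tested with edgeR 4.0.16 (R 4.3.3): filterByExpr, TMM scaling, glmQLFit and glmQLFTest with group means, two-sided, Benjamini-Hochberg adjusted over all 25303 genes tested, called at adjusted p under 0.05. Fold changes are scaled by TMM and so are not ratios of the printed CPM. A standard error is the log2 fold change divided by the square root of F. Folds against 0 counts are bounds against 3 counts over the group. Exact intervals and floors stand for counting error only, because PCR copies were not told apart by molecular identifiers. No label says that the 2 libraries of a group are separate plants or cultures, and p-values then measure only a spread that may be technical.

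The members and the 12 gene lists were chosen with earlier results of these data known. The lists use gene names of a RefSeq table of Zm-B73-REFERENCE-NAM-5.0, which matched 118 members once, 1 more than once and 25 not at all. Names that matched a list by letters alone were taken out once the names were seen. Genes named in the text are those with the most seedling reads (25), the most reads in each other group (10), the largest called changes (5 in each direction), those at the edges of the rule (5) and the named members of a list. KWL1 and GRMZM2G177812, which that rule did not name, were chosen after their values were seen. The rule did not name por (GRMZM2G073351) either, which stands only as an example of a named member in no list. Alternatives were other scalings, DESeq2 1.42.0, no filter, a replicate block, all 14 libraries in one fit and leaving out each library. No promoter or protein sequence was analysed here.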

Additional observations from a re-analysis of the deposited data

Results flagged for a closer look

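The effect of zmlrl5 differed between W22 root hair and B73 root for some members, by the interaction test (edgeR, adjusted over all genes tested). The difference is the log2 fold change in root hair minus that in root, with 2 libraries in each of 4 groups. 3 members had a higher effect in root hair, GRMZM2G042789 (2.72), GRMZM2G007249 (1.77) and GRMZM2G380432 (1.68). GRMZM2G042789 had 0.113 and 0.165 CPM in W22 wild type and 0.880 and 0.180 CPM in W22 zmlrl5 root hair, so 1 library carried the rise there. In root it had 4.86 and 5.24 CPM in wild type and 2.79 and 2.75 CPM in zmlrl5.

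21 members had a lower effect in root hair. The differences of largest size were those of GRMZM2G017290 (-5.82), GRMZM2G160268 (-5.19), GRMZM2G024996 (-4.89), GRMZM2G107839 (-4.36) and psan1, GRMZM2G080107 (-4.33). GRMZM2G017290 and GRMZM2G160268 had 0 counts in B73 wild type root, so their fitted differences are no bounds on size. GRMZM2G024996 was lower in zmlrl5 root hair, at 0 and 0.180 CPM against 5.41 and 7.11 CPM, and low in all 4 root libraries, at 0 to 0.456 CPM. Line, tissue and kind of mutant cannot be told apart in these differences. Groups of 2 libraries are too small to call a single library an outlier.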

How the results depend on the processing

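Scaling by DESeq2 size factors or upper quartiles left the counts of called members within 1.5 times in every comparison, and moved the median of all genes in W22 root hair against B73 root from -0.23 to -0.21 and -0.31. With DESeq2, 12 members instead of 23 were higher in zmlrl5 root hair, and genes whose adjusted p it gave as missing stayed so. Without the filter, 5 instead of 3 members had a higher effect in root hair than in root. Leaving out single libraries, members higher in zmlrl5 root hair ran from 5 to 37 and lower ones from 4 to 11, members higher in zmlrl5 root from 19 to 32 and lower ones from 0 to 2, and members with a higher or lower effect in root hair from 1 to 6 and from 12 to 35. The cause was not tested, and each such fit has fewer samples. Where 1 library remained in a group, it was assumed to vary like the other groups. Members higher and lower in W22 root hair against B73 root ran from 48 to 56 and from 30 to 37.

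The correlations of same-numbered deviations lay between -0.052 and 0.038, and the main fit did not pair the samples by replicate number. With 2 libraries in a group, such values cannot settle whether the samples were paired. With the replicate block, 17 members were higher and 7 lower in zmlrl5 root hair, 35 and 2 in zmlrl5 root, 3 and 20 in the difference, and 52 and 33 in root hair against root. Of 66 fold changes of named members, the one that reversed was gpa1 in zmlrl5 root hair, at -0.07 without W22 zmlrl5 root hair replicate 2 and up to 1.90 without another library. The number of members was 131 with an offset of 1 CPM, 179 with a ratio of 32, and 146 with TMM factors. Members with 0 to 3 counts in a group are limited by depth.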
